A study of Mus musculus with 16 samples.

Results

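S100 proteins are small calcium-binding proteins that mostly act as dimers. Each subunit carries a pair of EF-hand loops, and calcium binding opens a surface through which the dimer attaches to a partner protein. They are known from secreted forms that signal through Toll-like receptor 4 and the receptor RAGE, above all S100A8 and S100A9 of neutrophils and monocytes, and from intracellular forms that bind annexins, myosin or other partners. Most S100 genes lie in one cluster on mouse chromosome 3. The 8 S100 genes examined here were S100a1, S100a4, S100a6, S100a8, S100a9, S100a10, S100a11 and S100a13, and they were picked with the group differences on these same arrays already known. Their own levels are therefore given as a description and carry no p-value. A gene was read from each probe set (a group of short array probes for one transcript) whose annotation named that gene alone. This gave 10 probe sets for 7 of the 8 genes, out of 45101 probe sets and 18193 named genes on the array. The probe set listed for S100a11 was shared with other annotated genes, so no S100a11 value is given.

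The arrays measured RNA from Eμ-xbp-1s MM (6 arrays, "XBP1s Tumor" in the labels), from splenic B220+ B cells of Eμ-xbp-1s mice (5 arrays) and from splenic B220+ B cells of nontransgenic mice (5 arrays). The B cells came from mice 20 weeks old. No age is given for the MM samples, and their titles name no tissue. The paper describes MM in aging Eμ-xbp-1s mice and compares it with B cells of young ones. Age, tissue, sorting and disease thus cannot be told apart in the MM comparisons. Eμ-xbp-1s mice are C57BL/6 mice that carry a cDNA of mouse xbp-1s, the spliced and active form of the plasma cell transcription factor XBP-1, followed by an IRES and a farnesylated eGFP. An immunoglobulin VH promoter and the Eμ enhancer drive it. That enhancer is active in B-lineage cells and, to a lesser degree, in some T cells. There were 2 founder lines, and the labels do not say which one each array represents. No sort of the MM samples is described, and nothing states that the 6 came from separate mice. The p-values thus cover only the variation among these samples, some of which may be technical. Every value is a model-based probe set intensity on a linear scale, and each comparison below was made within 1 probe set.

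Several libraries stood apart, and the S100 values have to be read beside them. On MM replicates 4 and 5, the summed intensity of 12 measured neutrophil markers was 59378 and 32001, against 1098 to 2030 on the other 4 MM arrays. Their 7 erythroid markers summed to 22487 and 35922, against 356 to 585 on the other MM arrays. MM replicate 6 stood apart over the whole array, with Pearson's r of 0.73 to 0.79 with each other MM array over 11254 probe sets, while MM replicates 1 to 3 had 0.95 to 0.97 with each other. It was not alone in this. Replicate 5 had 0.75 and replicate 4 had 0.82 to 0.83 with replicates 1 to 3, and replicates 4 and 5 had 0.92 with each other. The 8 measured B cell markers summed to 712 to 13653 on MM arrays, 13304 to 26678 in Eμ-xbp-1s B cells and 31564 to 34814 in nontransgenic B cells, and the 9 stroma markers to 5245 to 13896 on MM arrays, 431 to 573 in Eμ-xbp-1s B cells and 376 to 569 in nontransgenic B cells. The plasma cell markers summed to 3703 to 16048 on MM arrays, 10089 to 14983 in Eμ-xbp-1s B cells and 11042 to 12569 in nontransgenic B cells. Pax5, a defining B cell factor, averaged 71.8 on MM arrays and 366.1 in nontransgenic B cells. In both B cell groups, replicates 1 and 2 resembled each other more than they resembled replicates 3 to 5, a split that no label names. In such bulk samples, fewer cells of a type and less RNA per cell cannot be told apart. This limit holds for every gene below, also between the 2 B cell groups.

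The promoter windows of the 4 genes with the largest differences are printed because S100a8 and S100a9 varied together over the arrays, and S100a4 and S100a6 differed alike between the groups. Each window runs from 250 bases before to 50 bases after the annotated start, 5′ to 3′ on the gene's strand. The sequences are RefSeq's, from build GRCm38.p6, where a window was given for 7 of the 8 genes. The capitals mark matches, on either strand, to 6 motifs searched: the TATA box TATAAA, a C/EBP motif TTGCNNAA, the AP-1 site TGANTCA, the PU.1 core GAGGAA, the unfolded protein response element TGACGTGG and the ER stress response element.
S100a8, chr3:90668821-90669120, plus strand: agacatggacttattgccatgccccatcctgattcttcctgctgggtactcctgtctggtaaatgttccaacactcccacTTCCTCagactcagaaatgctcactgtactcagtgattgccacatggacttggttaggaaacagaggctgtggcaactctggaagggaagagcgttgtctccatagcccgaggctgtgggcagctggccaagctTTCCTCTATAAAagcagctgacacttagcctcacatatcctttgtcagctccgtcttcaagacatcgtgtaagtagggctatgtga
S100a9, chr3:90695672-90695971, minus strand: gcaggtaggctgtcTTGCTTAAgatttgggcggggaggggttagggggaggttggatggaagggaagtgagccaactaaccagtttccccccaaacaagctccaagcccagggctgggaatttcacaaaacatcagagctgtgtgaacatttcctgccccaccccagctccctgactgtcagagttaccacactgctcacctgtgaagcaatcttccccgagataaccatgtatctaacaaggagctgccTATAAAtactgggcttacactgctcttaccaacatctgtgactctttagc
S100a4, chr3:90603520-90603819, plus strand: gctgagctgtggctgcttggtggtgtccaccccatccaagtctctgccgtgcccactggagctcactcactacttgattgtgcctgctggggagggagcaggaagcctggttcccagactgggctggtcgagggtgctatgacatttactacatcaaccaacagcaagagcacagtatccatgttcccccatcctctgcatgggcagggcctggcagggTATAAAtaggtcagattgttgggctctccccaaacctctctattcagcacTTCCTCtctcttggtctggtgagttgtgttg
S100a6, chr3:90612644-90612943, plus strand: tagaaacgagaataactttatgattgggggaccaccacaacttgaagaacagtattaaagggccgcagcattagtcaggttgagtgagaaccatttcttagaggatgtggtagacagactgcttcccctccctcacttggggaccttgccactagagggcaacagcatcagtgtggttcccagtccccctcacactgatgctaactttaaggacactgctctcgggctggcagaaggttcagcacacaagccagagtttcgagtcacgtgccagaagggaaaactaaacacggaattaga

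The windows of S100a8, S100a9 and S100a4 held a TATA box, which 13.6% of all 32851 windows of that length held. It lay 30 bases before the S100a8 start and 31 bases before the S100a4 start. In S100a9 it lay on the first base of the annotated transcript. The windows of S100a6, S100a1 and S100a13 matched none of the 6 motifs. The S100a8 window held the PU.1 core on its opposite strand at 2 places, of which 1 directly adjoined the TATA box, and the S100a4 window held it once, after the start. The PU.1 core was in 28.3% of all windows. S100a9 held 1 C/EBP motif (10.8% of all windows). None of the 7 windows, S100a11 included, matched the unfolded protein response element (0.676% of all windows) or the ER stress response element (0.119%), through which XBP-1 is known to act. CG dinucleotides numbered 4 in S100a8, 2 in S100a9, 2 in S100a4 and 6 in S100a6, against 11 in S100a1, 14 in S100a13 and 15 in S100a11. S100a1 and S100a13 are read in opposite directions, and their gene bodies share 98 bases. A match describes the letters only.

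Eμ-xbp-1s B cells had far more RNA of S100a8 and S100a9 than nontransgenic B cells, and MM arrays split between very high and low levels. S100A8 and S100A9 pair as calprotectin, a main protein of the neutrophil cytosol. S100a8 measured 3772, 3627, 4347, 4663 and 8190 on Eμ-xbp-1s B cell replicates 1 to 5, against 33.5, 75.1, 419.7, 450.9 and 252.9 on nontransgenic replicates 1 to 5. Every Eμ-xbp-1s B cell array lay above every nontransgenic array. On MM arrays S100a8 ran between 31.2 and 12588 with a median of 429.6. MM replicates 4 and 5 held 12588 and 12292, above every B cell array, and the other 4 MM arrays lay between 31.2 and 443.5, like the nontransgenic arrays at 33.5 to 450.9. The lowest arrays of both groups were under the floor of 50 (lower values were set to it), where values have no order. The fold between Eμ-xbp-1s and nontransgenic B cells was at least 60.4 within replicates 1 and 2, where 1 nontransgenic array was under the floor, and 15.1 within replicates 3 to 5, and both were read from arrays that the labels do not set apart.

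S100a9 gave much the same picture array by array. It measured 3615, 3491, 3768, 4222 and 7519 in Eμ-xbp-1s B cells, against 58.2, 83.1, 398.4, 456.3 and 244.0 in nontransgenic B cells. On MM arrays it lay between 58.6 and 12964, with a median of 361.4, and replicates 4 and 5 again stood at the top with 12964 and 12029. The fold of Eμ-xbp-1s over nontransgenic B cells was 51.1 within replicates 1 and 2 and 13.9 within replicates 3 to 5. Over the 16 arrays, Pearson's r between log2 S100a8 and log2 S100a9 was 0.996, and it was 0.993 with group means subtracted. These points share their arrays, so r is a description. The highest intensity of any probe set in the series was 13035, so the MM replicate 4 and 5 values lay close to the top of the measured range.

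**Figure D1:**
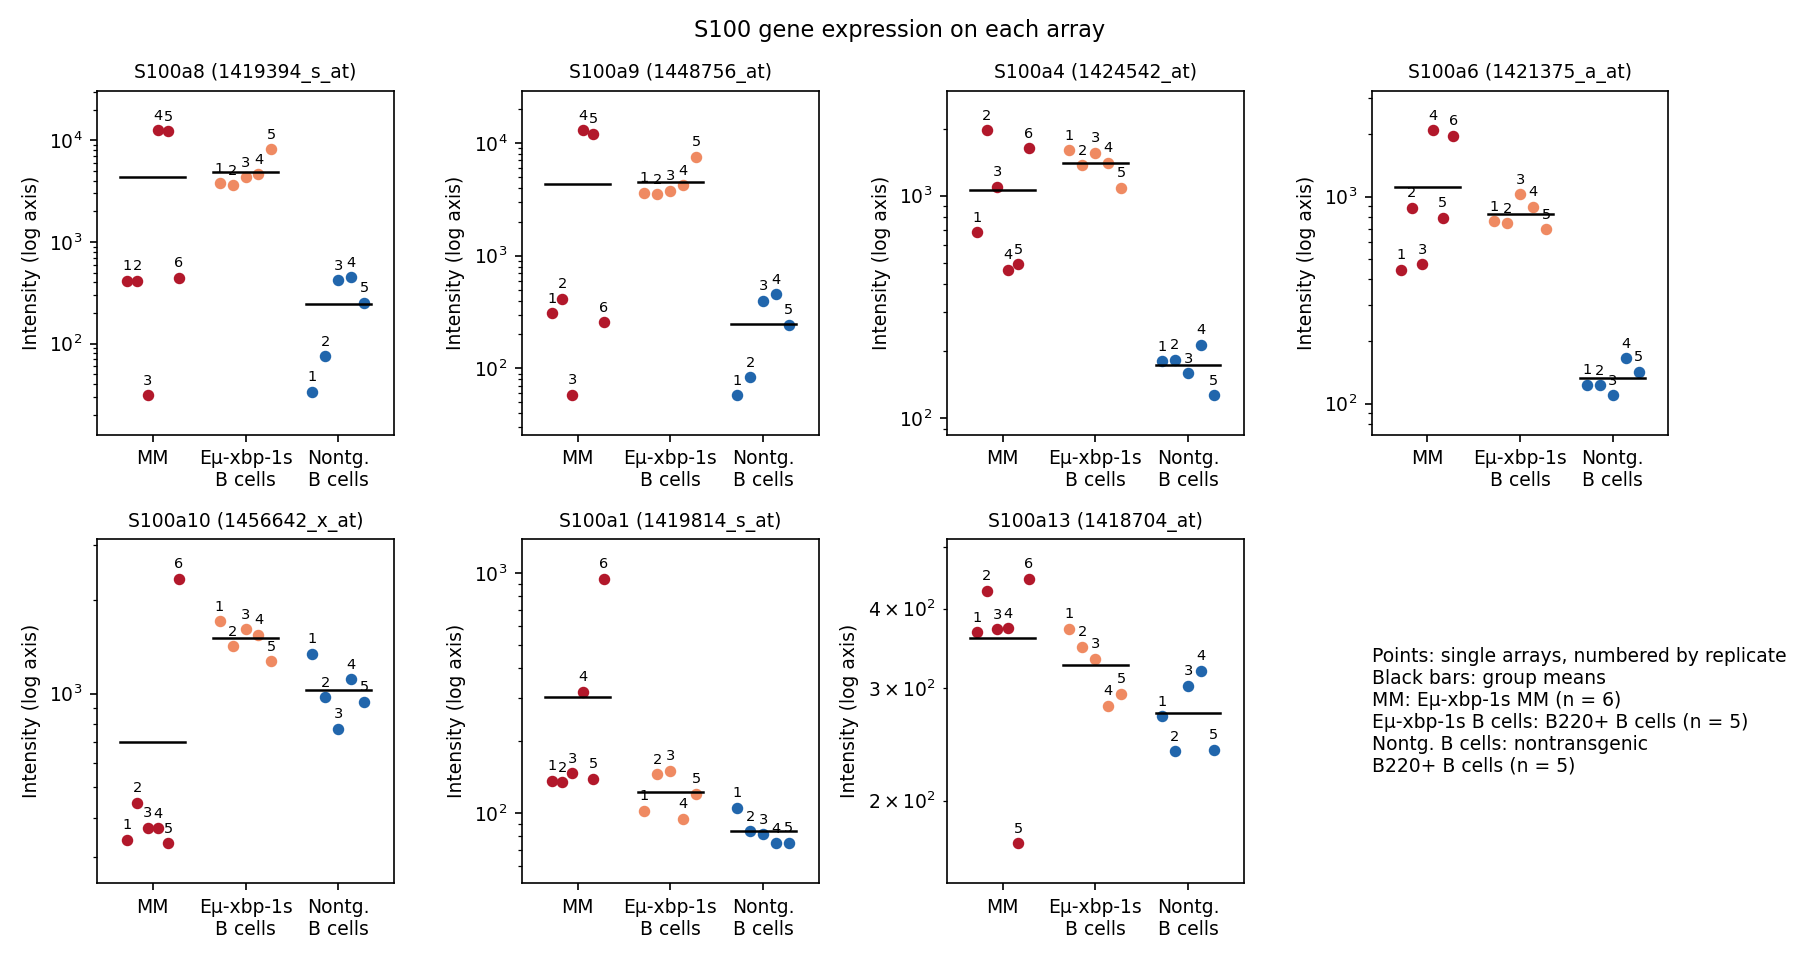
Intensity of 7 S100 genes (brightest probe set of each) on every array, on log axes, with points numbered by replicate and black bars for group means. S100a8 and S100a9 lie at 12029 to 12964 on MM replicates 4 and 5, and S100a10 and S100a1 are highest on MM replicate 6.

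Neutrophil markers moved with S100a8 and S100a9 between groups. The 12 measured neutrophil markers summed to 2737 to 18219 in Eμ-xbp-1s B cells, against 935 to 983 in nontransgenic B cells. Of the 9 that passed the filter on low values there, 6 rose and none fell, among them Camp, Chil3 and Mmp8, granule or secreted proteins of neutrophils and macrophages. Over all named genes tested between the B cell groups, 3.47% passed in either direction. Camp, Chil3, Mmp8 and Cxcr2 were at or under the floor of 50 on all 5 nontransgenic arrays. These genes passed the filter through the Eμ-xbp-1s arrays alone and could not have been called lower. The absence of falling markers is therefore not read as a result. Eμ-xbp-1s B cell replicate 5, highest in S100a8 and S100a9, also had the highest marker sum, 18219, against 2737 to 4575 on the other 4 arrays. On the nontransgenic arrays the marker sum stayed between 935 and 983 while S100a8 lay between 33.5 and 450.9. With 4 of the 12 markers at or under the floor there, that sum could show little change, and nothing is read from its constancy. On MM replicate 3, with S100a8 at 31.2, the marker sum was 1288, of which Chil3 gave 494. The 7 erythroid markers summed to 964 to 9675 in Eμ-xbp-1s B cells, highest on replicate 3, against 234 to 510 in nontransgenic B cells, and 1 of the 6 tested rose. Over the 16 arrays the mean of the neutrophil markers had an r of 0.83 with S100a8 and 0.85 with S100a9 (0.83 and 0.87 with group means subtracted). The mean of the erythroid markers had an r of 0.77 with S100a8 and 0.79 with S100a9 (0.79 and 0.83 with group means subtracted). The part of neutrophils and erythroid cells in the S100a8 and S100a9 differences was not tested.

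S100a4 was higher in Eμ-xbp-1s B cells and in MM than in nontransgenic B cells, on every array. S100A4, also called metastasin, binds nonmuscle myosin heavy chain IIA and is known in motile cells, fibroblasts and memory T cells. It measured 1598, 1375, 1557, 1408 and 1089 on the Eμ-xbp-1s B cell arrays, against 180.7, 183.6, 160.0, 214.1 and 127.5 on the nontransgenic arrays. On MM arrays it lay between 464.9 and 1969, with a median of 892.7. All MM arrays lay above all nontransgenic arrays, and they overlapped the Eμ-xbp-1s B cell arrays. The log2 fold change was 3.03 (SE 0.16) in Eμ-xbp-1s over nontransgenic B cells, and 3.02 within replicates 1 and 2 and 3.03 within replicates 3 to 5. It was 2.41 (SE 0.37) in MM over nontransgenic B cells and -0.62 (SE 0.37) in MM over Eμ-xbp-1s B cells, where the groups overlapped.

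T cell markers moved with S100a4 in the B cell groups, and less so on the MM arrays. The 9 measured T cell markers summed to 5702 to 7148 in Eμ-xbp-1s B cells, against 745 to 883 in nontransgenic B cells. All 9 passed the test and rose, Cd3d and Thy1 among them, where 3.47% of all named genes tested passed in either direction. Cd3d and Thy1 reached at most 81.1 and 82.1 on the nontransgenic arrays. They thus passed the filter on low values through the Eμ-xbp-1s arrays alone. On MM replicates 4, 5 and 6 the T cell markers summed to 1118, 668 and 823, near the nontransgenic range, and S100a4 there measured 464.9, 493.4 and 1632. On MM replicates 1 to 3 the markers summed to 3282 to 4544 and S100a4 lay between 687.5 and 1969. Macrophage and monocyte markers, 11 measured, summed to 10773 to 37134 on MM arrays, 8324 to 15845 in Eμ-xbp-1s B cells and 4091 to 6294 in nontransgenic B cells. NK cell markers, 7 measured, summed to 1238 to 3336 on MM arrays, 2370 to 3810 in Eμ-xbp-1s B cells and 949 to 1369 in nontransgenic B cells. The part of T cells, macrophages, NK cells and stroma in the S100a4 differences was not tested.

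**Figure D2:**
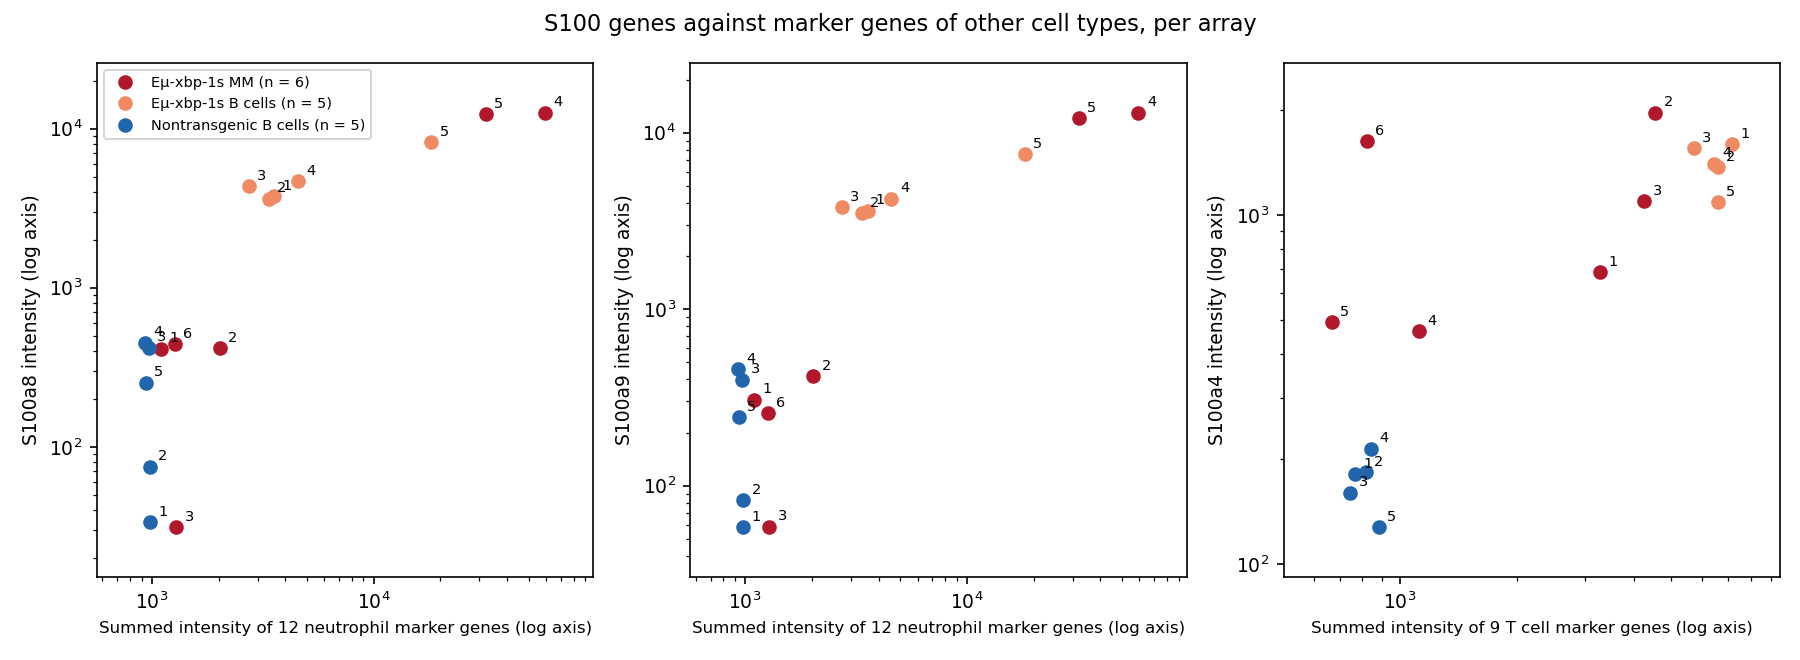
S100a8 and S100a9 against the summed intensity of 12 neutrophil markers, and S100a4 against that of 9 T cell markers, 1 point per array on log axes, numbered by replicate. Nontransgenic arrays spread from 33.5 to 450.9 in S100a8 at a marker sum of 935 to 983. In that sum 4 of the 12 markers were at or under the floor on every array. MM replicate 6 has 1632 of S100a4 at a T cell marker sum of 823.

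S100a6 behaved like S100a4 between groups but not among arrays of a group. S100A6, or calcyclin, binds CACYBP, a protein of ubiquitin ligase complexes. It measured 762, 745.4, 1028, 891.5 and 695.2 in Eμ-xbp-1s B cells, against 123.1, 122.3, 110.0, 165.8 and 142.2 in nontransgenic B cells. The MM arrays lay between 443.0 and 2091, with a median of 835.2. Both Eμ-xbp-1s groups lay above nontransgenic B cells on all arrays and overlapped each other. The log2 fold change was 2.64 (SE 0.15) in Eμ-xbp-1s over nontransgenic B cells, 2.80 (SE 0.40) in MM over nontransgenic B cells and 0.17 (SE 0.40) in MM over Eμ-xbp-1s B cells. Pearson's r between S100a4 and S100a6 was 0.82 over the 16 arrays and 0.05 with group means subtracted. On MM replicate 4 S100a6 stood at 2091 while S100a4 stood at 464.9, its lowest MM value. Over the 16 arrays S100a6 had an r of 0.72 with the mean of the macrophage and monocyte markers and 0.61 with that of the neutrophil markers. With group means subtracted these were -0.01 and 0.39. The part of those cells in the S100a6 differences was not tested.

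By its brightest probe set, S100a10 was lower on 5 of the 6 MM arrays than on any B cell array. S100A10, or p11, joins annexin A2 in a tetramer at the cell surface that binds plasminogen. That probe set, 1 of 3, measured 1711, 1421, 1612, 1547 and 1273 in Eμ-xbp-1s B cells, against 1345, 973, 771, 1115 and 944 in nontransgenic B cells. On MM arrays it lay between 330.4 and 2341, with a median of 371.0. MM replicates 1 to 5 lay at 330.4 to 446.5, under every B cell array, and replicate 6 stood at 2341, above every B cell array. Replicate 6 was among the MM arrays that stood apart over all probe sets. The log2 fold change in MM over Eμ-xbp-1s B cells was -1.58 (SE 0.44) with replicate 6 and -2.03 without it.

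The other S100a10 probe sets gave the same order for MM and Eμ-xbp-1s B cells. On the second, MM arrays lay between 200.1 and 1458 with a median of 362.6, and replicate 6 was again the highest. It measured 1625, 1373, 557, 755 and 717 in Eμ-xbp-1s B cells, against 1168, 930, 531, 842 and 757 in nontransgenic B cells. Here replicates 1 and 2 of both B cell groups were higher than replicates 3 to 5, and the log2 fold change of Eμ-xbp-1s over nontransgenic B cells was 0.52 (SE 0.17) within replicates 1 and 2 and -0.06 (SE 0.22) within replicates 3 to 5. The dimmest probe set measured 78.7 to 189.3 on MM arrays, with a median of 105.3, and there MM replicates 4 and 6 (142.6 and 189.3) lay above all nontransgenic arrays. It measured 205.9, 197.6, 244.5, 280.6 and 205.5 in Eμ-xbp-1s B cells, against 131.4, 129.6, 132.0, 112.8 and 131.5 in nontransgenic B cells. All Eμ-xbp-1s B cell arrays lay above the other 2 groups on that probe set. In MM over nontransgenic B cells the 3 probe sets disagreed in size, with log2 fold changes of -1.01 (SE 0.45), -1.04 (SE 0.42) and -0.15 (SE 0.21).

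**Figure D3:**
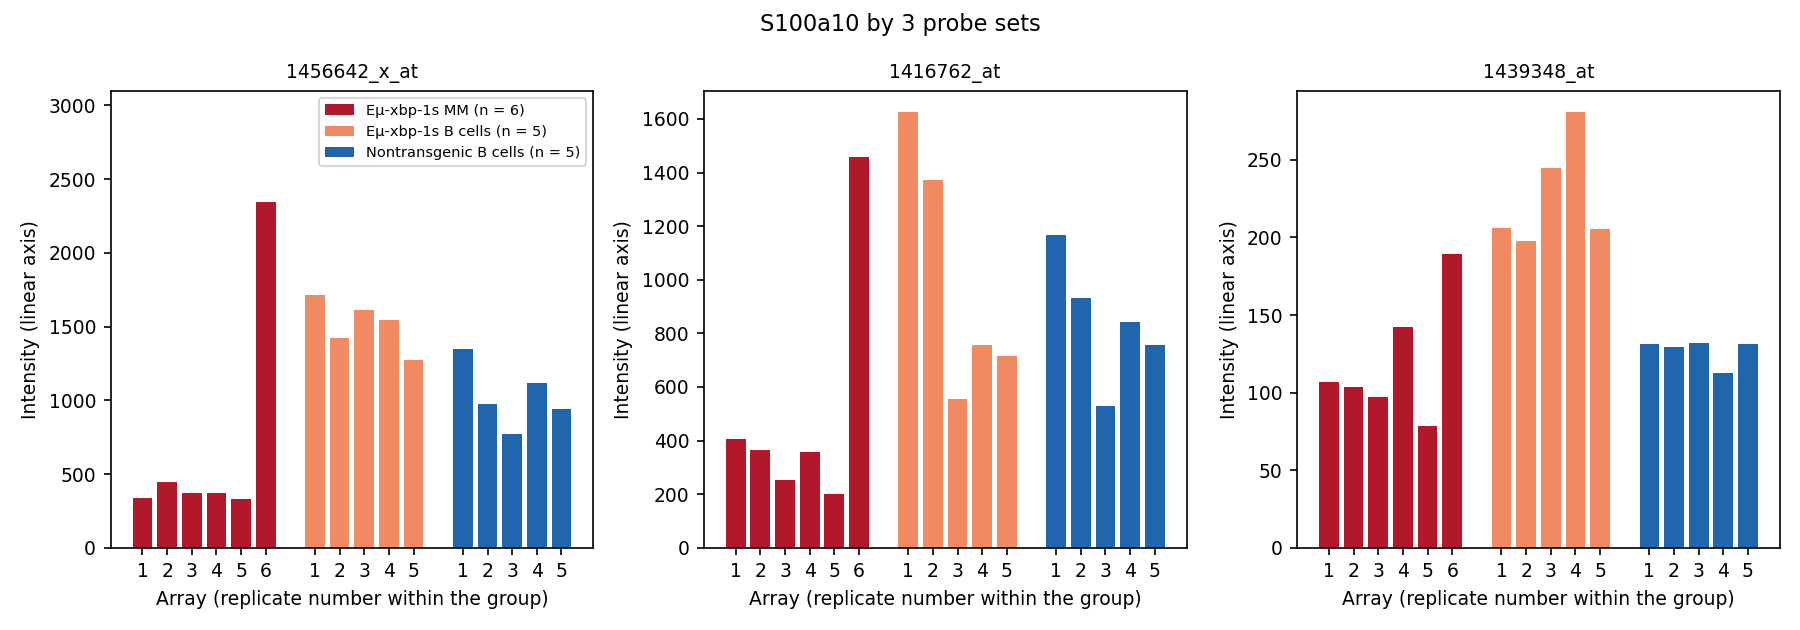
Intensity of S100a10 by each of its 3 probe sets on every array, on linear axes from 0, with bars in the order MM, Eμ-xbp-1s B cells and nontransgenic B cells. MM replicate 6 is the highest MM array on each probe set, at 2341, 1458 and 189.3.

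S100a1 lay at 150.3 or less on all arrays but 2, both of them MM. S100A1 is best known from striated muscle, where it binds the ryanodine receptor of the sarcoplasmic reticulum. Its brighter probe set measured 102.3, 145.0, 150.3, 94.5 and 120.5 in Eμ-xbp-1s B cells, against 105.4, 83.8, 81.4, 74.7 and 75.4 in nontransgenic B cells. On MM arrays it lay between 134.1 and 945.2, with a median of 142.6, and replicates 4 and 6 held 320.3 and 945.2. All 6 MM arrays lay above all nontransgenic arrays, by a log2 fold change of 1.40 (SE 0.46), or 0.73 (SE 0.14) with MM replicates 1 to 3 alone. The other probe set was at or under the floor on all B cell arrays and on 5 MM arrays. MM replicate 6 held 115.9 there, so both probe sets were highest on an array that stood apart from each other MM array, and the part of that array's difference was not tested.

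S100a13 differed least. S100A13 is known to take part in the release of FGF1 and interleukin 1α, which leave cells without a signal peptide. It measured 372.1, 348.4, 333.9, 281.6 and 294.2 in Eμ-xbp-1s B cells, against 271.2, 238.9, 303.0, 319.8 and 240.4 in nontransgenic B cells, and the groups overlapped. MM arrays lay between 171.3 and 445.6, with a median of 372.0. MM replicate 5 was the low one, and the other 5 lay at 367.1 or above, over every nontransgenic array. The log2 fold change was 0.25 (SE 0.13) in Eμ-xbp-1s over nontransgenic B cells, 0.33 (SE 0.23) in MM over nontransgenic B cells and 0.08 (SE 0.24) in MM over Eμ-xbp-1s B cells. Its order by mean was 359.1 ± 97.7 in MM, 326.0 ± 37.6 in Eμ-xbp-1s B cells and 274.7 ± 36.4 in nontransgenic B cells (SD over 6, 5 and 5 arrays). MM arrays overlapped Eμ-xbp-1s B cells, and the 2 B cell groups overlapped each other.

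Across the members, 9 of the 10 probe sets passed the filter on low values in each comparison. At an adjusted p under 0.01 from limma over all probe sets, 5 were higher and 0 lower in Eμ-xbp-1s over nontransgenic B cells, where 2.75% of all 20596 tested probe sets were higher and 0.481% lower. The 5 were S100a8, S100a9, S100a4, S100a6 and the dimmest S100a10 probe set, and the same 5 did not overlap between the groups, as 5.6% of all probe sets did in that direction. In MM over Eμ-xbp-1s B cells none of the 9 passed (1.28% of all 22194 tested were higher and 1.91% were lower). Counted at an unadjusted p under 0.05, the number lower was 3 and the number higher 0, against 15.2% and 11.4% of all probe sets. Only the dimmest S100a10 probe set did not overlap, lower in MM, as 4.15% of all probe sets did. In MM over nontransgenic B cells S100a4 and S100a6 were higher and none was lower (3.95% of all 21894 tested were higher and 5.65% lower), and S100a1, S100a4 and S100a6 did not overlap (6.59% of all, higher). The median log2 fold change of the tested members was 0.82 in Eμ-xbp-1s over nontransgenic B cells (-0.05 over all probe sets tested), -0.97 in MM over Eμ-xbp-1s B cells (0.00 over all) and 1.40 in MM over nontransgenic B cells (-0.03 over all). With each array scaled to the same median, all probe sets called numbered 247 higher and 762 lower in MM over Eμ-xbp-1s B cells (285 and 423 as deposited) and 694 higher and 2078 lower in MM over nontransgenic B cells (864 and 1236 as deposited). Since these genes were picked from such differences, the counts describe them and nothing is read from them. The comparisons share arrays pairwise.

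**Figure D4:**
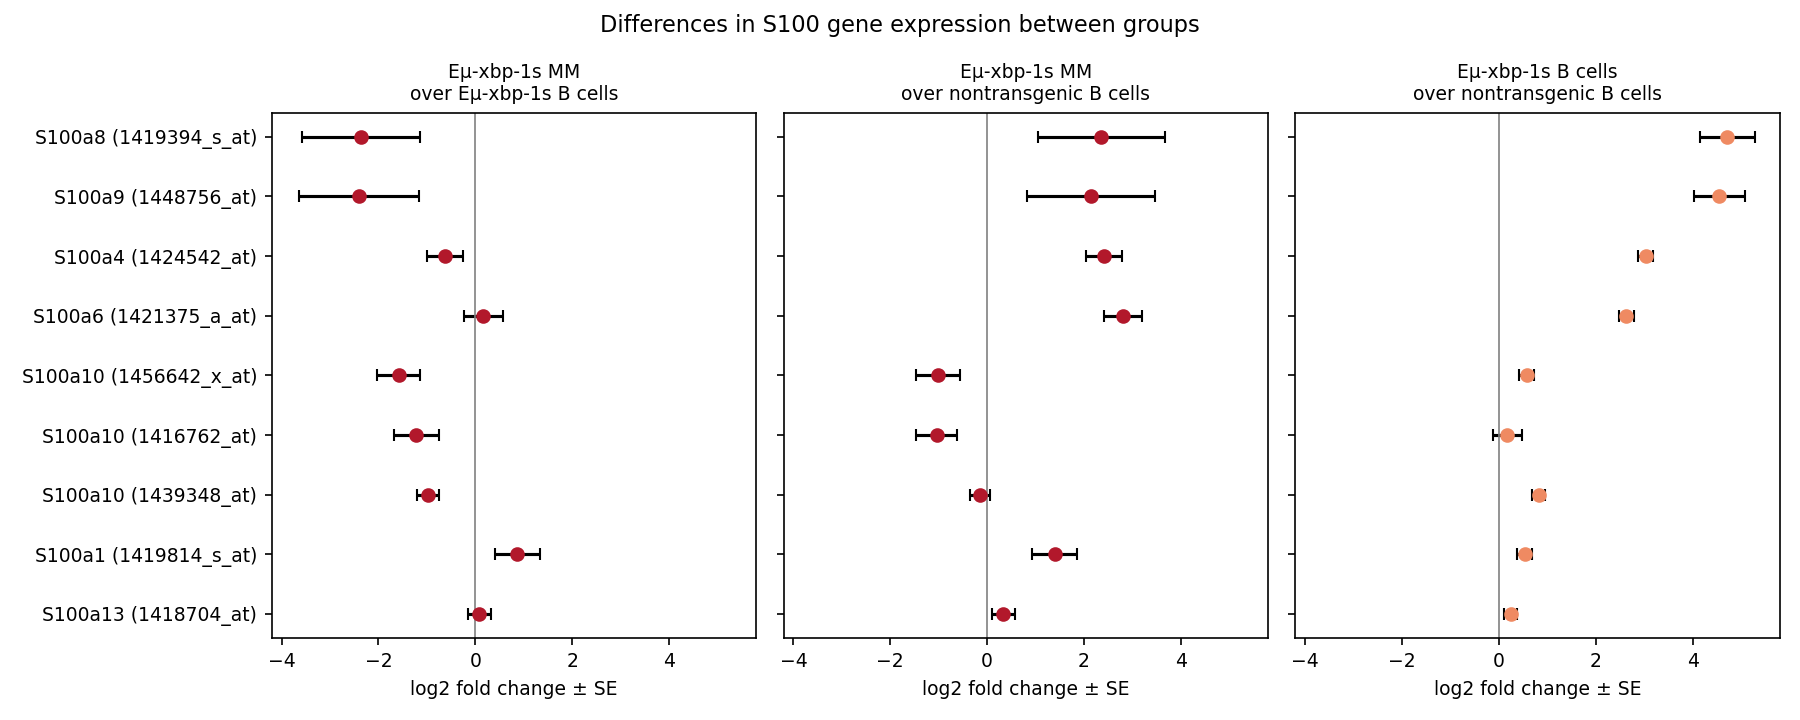
Log2 fold changes with SE of the 9 tested S100 probe sets in the 3 comparisons, each panel with its own pair of groups (6 MM, 5 Eμ-xbp-1s B cell and 5 nontransgenic B cell arrays). S100a10 lies at -1.58, -1.22 and -0.97 in MM over Eμ-xbp-1s B cells, and S100a8 and S100a9 have the widest errors wherever MM enters, SE 1.22 to 1.32.

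Leaving out MM arrays moved these counts. Without MM replicates 4 and 5, the log2 fold change of S100a8 in MM over Eμ-xbp-1s B cells was -4.24 (SE 0.59), against -2.36 (SE 1.22) with all 6 arrays, and that of S100a9 was -4.37 (SE 0.50), against -2.40 (SE 1.24). S100a8 and S100a9 then passed the test as lower in MM. The arrays left out were the 2 with the highest S100a8 and S100a9 values, so nothing is read from that call. Without MM replicate 6 all 3 S100a10 probe sets passed it instead, lower in MM, and in MM over nontransgenic B cells 2 of them passed, also lower (log2 fold changes -1.45 and -1.42). Replicate 6 was likewise the highest MM array on each S100a10 probe set, and nothing is read from those calls. In MM over nontransgenic B cells, S100a8 stood at 2.36 (SE 1.32) with all arrays and 0.48 (SE 0.83) without replicates 4 and 5. In a fit of all 3 groups together, S100a8, S100a9 and S100a10 no longer passed in Eμ-xbp-1s over nontransgenic B cells, and S100a4 and S100a6 still did.

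Of the rest of the S100 family, 11 of 15 listed genes were measured and 3 passed the filter. S100a16, a widely expressed relative, rose in MM over nontransgenic B cells to 265.5 ± 60.0 (SD, n = 6), against 126.4 ± 10.8 (SD, n = 5), with a log2 fold change of 1.04 (SE 0.17, limma adjusted p = 0.00159). By the other S100a16 probe set it was not past the test. It averaged 149.2 ± 59.6 in Eμ-xbp-1s B cells (SD, n = 5), and neither comparison with that group passed. S100a5 averaged 112.9 ± 21.2 in MM, 147.3 ± 50.3 in Eμ-xbp-1s B cells and 120.5 ± 21.3 in nontransgenic B cells (SD over 6, 5 and 5 arrays), and passed nowhere. Rptn, repetin, a fused S100 protein of skin, averaged 178.3 ± 80.1 in Eμ-xbp-1s B cells and 92.5 ± 24.9 in nontransgenic B cells (SD, n = 5 each), a log2 fold change of 0.87 (limma adjusted p = 0.111). With the replicate number as a block its adjusted p was 0.00965. So 0 of 3, 0 of 3 and 1 of 3 changed in Eμ-xbp-1s over nontransgenic B cells, MM over Eμ-xbp-1s B cells and MM over nontransgenic B cells, where 3.47%, 3.16% and 9.41% of all named genes tested did.

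Annexins, the calcium-dependent membrane binders that several S100 dimers join, rose in Eμ-xbp-1s B cells, 4 of the 7 tested, with none lower. Of all named genes tested against nontransgenic B cells, 3.47% passed in either direction. Anxa1, the partner of S100A11, measured 871.3 ± 344.7 in Eμ-xbp-1s B cells, against 190.0 ± 22.6 in nontransgenic B cells (SD, n = 5 each), a log2 fold change of 2.12 (SE 0.23, limma adjusted p = 9.2e-05). Anxa2, the partner of S100A10, measured 925.8 ± 142.5 in Eμ-xbp-1s B cells, against 376.8 ± 125.5 in nontransgenic B cells, a log2 fold change of 1.34 (SE 0.22, limma adjusted p = 0.00254). Without nontransgenic replicate 5 its adjusted p was 0.0103. Anxa5, which binds exposed phosphatidylserine, rose by 0.92 (SE 0.13, limma adjusted p = 0.000956). Anxa3, an annexin abundant in neutrophils, lay under the floor on all 5 nontransgenic arrays, so its rise was at least 1.15 on the log2 scale. It passed the filter through the other group alone, here and in MM over nontransgenic B cells. In neither comparison could it have been called lower. With all 3 groups in 1 fit none of these 4 passed (limma adjusted p between 0.0193 and 0.0823). Anxa2 and Anxa5 also missed it within replicates 3 to 5 (0.0315 and 0.0152), Anxa2 without the filter on low values (0.0233), and Anxa3 with a floor of 100 (0.308).

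In MM over nontransgenic B cells 2 of 8 annexins, read from their brightest probe sets, passed the test, both higher. Of all named genes tested, 9.41% passed in either direction. Anxa1 and Anxa5 missed it narrowly, with log2 fold changes of 2.37 and 1.07 (SE 0.61 and 0.25, limma adjusted p = 0.0164 and 0.0101). Both passed with all 3 groups in 1 fit (limma adjusted p = 0.00487 and 0.00245). Anxa2 averaged 996.5 ± 471.0 on MM arrays (SD, n = 6), a log2 fold change of 1.35 over nontransgenic B cells (SE 0.31, limma adjusted p = 0.00917), and leaving out any 1 nontransgenic array or MM replicate 2, 3, 4 or 5 put its adjusted p between 0.0112 and 0.0295, and leaving out the filter put it at 0.0376. Anxa3 rose by at least 2.68 on the log2 scale. Anxa6 went the other way, with a log2 fold change of -1.45 (SE 0.43, limma adjusted p = 0.0295) by its brightest probe set. Of its 4 tested probe sets, 1 passed. In MM over Eμ-xbp-1s B cells none of 8 annexins passed, where 3.16% of all named genes tested did. An unadjusted p under 0.05 was reached by 2 that were higher and 1 that was lower (11.4% and 15.2% of all probe sets). The lower one was Anxa6, with a log2 fold change of -1.71 (SE 0.46, limma adjusted p = 0.0352) and no overlap between the groups. Anxa2 there had a log2 fold change of 0.01 (SE 0.28), beside -1.58 (SE 0.44) for its partner S100a10. On MM replicate 6, where S100a10 stood at 2341, Anxa2 stood at 569.5, its lowest MM value. The part of other cell types in the annexin differences was not tested.

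Of the tested receptor genes, 1 of 8 rose in Eμ-xbp-1s over nontransgenic B cells, and none of 9 passed in either MM comparison. Over all named genes tested, 3.47% passed in the first, 3.16% in MM over Eμ-xbp-1s B cells and 9.41% in MM over nontransgenic B cells. Tlr4, a receptor for S100A8 and S100A9, measured 181.5 ± 32.9 in MM, 159.4 ± 40.7 in Eμ-xbp-1s B cells and 176.6 ± 22.6 in nontransgenic B cells (SD over 6, 5 and 5 arrays), and passed in no comparison. Its log2 fold change was -0.17 (SE 0.18) in Eμ-xbp-1s over nontransgenic B cells. Cd14, the coreceptor of Tlr4, rose to 381.5 ± 125.8 in Eμ-xbp-1s B cells, against 171.0 ± 31.7 in nontransgenic B cells, a log2 fold change of 1.13 (SE 0.21, limma adjusted p = 0.00554), as the receptor gene past the test. That call ended with all 3 groups in 1 fit (limma adjusted p = 0.690), without the filter (0.0364) and within replicates 3 to 5 (0.0324). It also ended when replicate 5 of the Eμ-xbp-1s B cells or any 1 of nontransgenic replicates 1, 2, 4 and 5 was left out, with adjusted p between 0.0141 and 0.0200. On MM replicates 4 and 5 Cd14 measured 8392 and 3907, on the arrays where S100a8 was 12588 and 12292. Its log2 fold change in MM over nontransgenic B cells was 2.11 (SE 0.93). The part of macrophages, monocytes and neutrophils in the Cd14 differences was not tested.

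The other partner proteins included Ahnak, a giant scaffold that binds the S100A10 and annexin A2 complex. Ahnak was the only 1 of 13 tested to pass in Eμ-xbp-1s over nontransgenic B cells (3.47% of all named genes tested did). It measured 1299 ± 194 in Eμ-xbp-1s B cells, against 650 ± 195 in nontransgenic B cells, a log2 fold change of 1.03 (SE 0.20, limma adjusted p = 0.00735), on 1 of its 3 probe sets. That call ended when any array other than nontransgenic replicate 1 was left out, with adjusted p between 0.0105 and 0.0267, and it ended with all 3 groups in 1 fit (0.0169) and without the filter (0.0412). In MM Ahnak fell to 504.7 ± 115.0, against 1299 ± 194 in Eμ-xbp-1s B cells (log2 fold change -1.39, SE 0.20, limma adjusted p = 0.00176), again on 1 of its 3 probe sets. It was the only 1 of 14 tested to pass there (3.16% of all named genes tested did). Ryr1, the muscle ryanodine receptor, fell in MM to 38.6 ± 31.9, against 153.5 ± 18.6 in nontransgenic B cells (log2 fold change -1.44, SE 0.20, limma adjusted p = 0.000454), and 5 of the 6 MM values were under the floor. Cacybp and Myh9, the partners of S100A6 and S100A4, were measured and did not pass. Cacybp averaged 785.9 ± 188.0 in Eμ-xbp-1s B cells and 800.5 ± 98.4 in nontransgenic B cells. The part of other cell types in the Ahnak and Ryr1 differences was not tested.

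Of 6 tested myeloid regulators, 3 were past the test in Eμ-xbp-1s over nontransgenic B cells, all higher and all C/EBP factors, which are known to act on the S100a8 and S100a9 promoters. Cebpb averaged 538.4 ± 176.9 in Eμ-xbp-1s B cells, against 137.1 ± 37.2 in nontransgenic B cells, a log2 fold change of 1.95 (SE 0.26, limma adjusted p = 0.000538). Cebpa averaged 163.2 ± 22.9 in Eμ-xbp-1s B cells, against 74.7 ± 9.67 in nontransgenic B cells (log2 fold change 1.13, SE 0.15, limma adjusted p = 0.000511). Cebpd, under the floor on all nontransgenic arrays, rose by at least 1.36 on the log2 scale. It passed the filter through the other group alone, here and in MM over nontransgenic B cells. In neither comparison could it have been called lower. The Cebpb call, made on 1 of its 2 tested probe sets, ended without the filter (limma adjusted p = 0.0106). Cebpa and Cebpb also missed the threshold with all 3 groups in 1 fit (0.134 and 0.0844) and within replicates 3 to 5 (0.0120 and 0.0121), and Cebpd with a floor of 100 (0.167). In MM over nontransgenic B cells Cebpa rose by 1.96 (SE 0.37, limma adjusted p = 0.00349) and Cebpd by at least 2.26, 2 of 6 tested, and the Cebpa call ended without any 1 nontransgenic array, with adjusted p between 0.0101 and 0.0116, with a floor of 100 (0.0147) and without the filter (0.0201). None of 7 regulators passed in MM over Eμ-xbp-1s B cells, with 2 higher at an unadjusted p under 0.05 (11.4% of all probe sets). These factors are also general genes of the neutrophil and macrophage lineages, whose markers moved in the same comparisons as given above, and the part of those cells was not tested. Of all 5 lists, 9 of 37 tested genes passed in Eμ-xbp-1s over nontransgenic B cells (3.47% of all named genes tested), 1 of 41 in MM over Eμ-xbp-1s B cells (3.16% of all) and 6 of 40 in MM over nontransgenic B cells (9.41% of all), and MM over Eμ-xbp-1s B cells shares arrays with both others. Both counts over nontransgenic B cells include Anxa3 and Cebpd, which could not have been called lower.

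**Figure D5:**
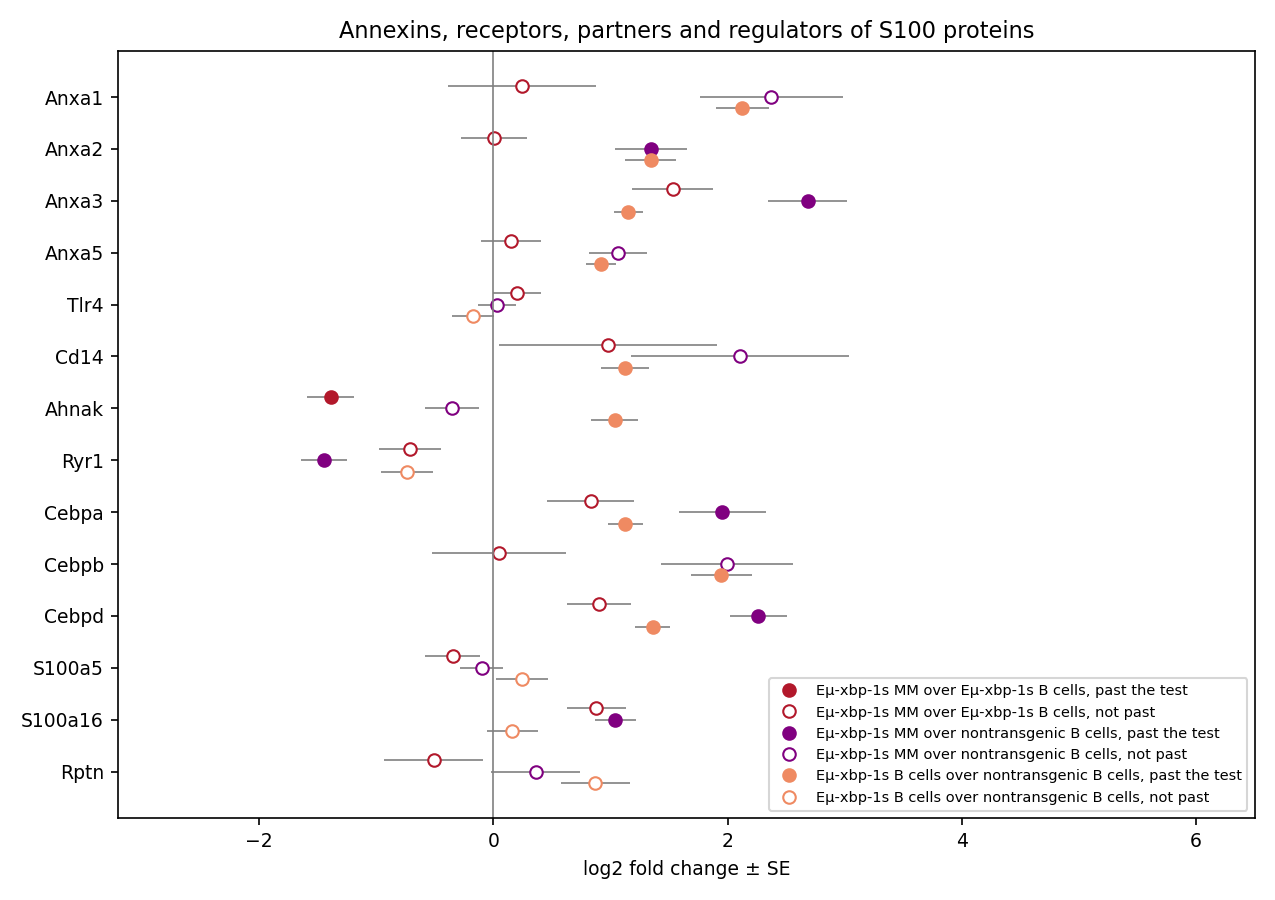
Log2 fold changes with SE of the named annexins, receptors, partners, regulators and other S100 family genes in the 3 comparisons, without Anxa6, Cacybp and Myh9. Points are filled where the limma adjusted p was under 0.01 and open where it was not. Anxa2 lies at 1.34 and 1.35 over nontransgenic B cells and at 0.01 in MM over Eμ-xbp-1s B cells, while Ahnak lies at 1.03 in Eμ-xbp-1s B cells and -1.39 in MM over Eμ-xbp-1s B cells.

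Other genes followed the members across the 16 arrays, among 11058 named candidates ranked by Pearson's r of log2 intensity, given as a description. For S100a8 the closest were Cd9, Slfn4 and Cxcr2 (r between 0.90 and 0.92), and for S100a9 Cd9, Slfn4 and Mmp8 (0.91 to 0.93). Cxcr2 is a neutrophil chemokine receptor and Mmp8 a neutrophil collagenase. For S100a6 they were Tsc22d1, Tyrobp and Fcgr3 (0.91 to 0.92), of which Tyrobp, an adaptor, and Fcgr3, an Fc receptor, are known in myeloid and NK cells. For S100a4 they were Mrpl33, Prr5l and Smpdl3a (0.90 to 0.92). With group means subtracted, none of these 12 entries stayed among the first 3 for its member. For S100a1, Nupr1, a stress-induced nuclear protein, came first over the 16 arrays (0.95) and with group means subtracted (0.92), and S100a1 was highest on MM replicate 6 alone. For S100a10 the closest were Dyrk2, Lratd2 and H2-Ke6 (0.86 to 0.91), and for S100a13 Naip2, Mydgf and Ier3ip1 (0.84 to 0.85), of which Ier3ip1 also came first with group means subtracted (0.89).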

How the data were processed

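RNA from 6 MM, 5 Eμ-xbp-1s B cell and 5 nontransgenic B cell samples was hybridised to Affymetrix Mouse Genome 430 2.0 arrays. The authors derived the deposited intensity values, on a linear scale, with dChip: arrays were normalised to the array of median overall intensity and expression was modelled from perfect-match minus mismatch probes, a subtraction that leaves dim values noisy. All columns used belonged to a sample of the series (0 columns of no sample). Groups and replicate numbers came from the labels. Of 45101 probe sets, 34958 had 1 annotated gene, 932 several and 9211 were not listed. For 34754 the current symbol was looked up by gene ID, whether or not it differed. The number of arrays limits the precision.

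The S100 genes, the gene lists and the tests were chosen with earlier results of these data known. Values under 50 were set to 50 and log2 transformed. A probe set was tested where over 20% of the arrays compared exceeded 100, in each pair of groups alone, with limma (3.58.1, R 4.3.3) and Benjamini-Hochberg adjustment over all tested probe sets, called at an adjusted p under 0.01. A gene of a list was read from its brightest probe set. A rise against a group wholly under the floor is a lower bound. The test was tried on simulated data first. Tables were handled in Python 3.11.15 with pandas 2.3.3.

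Named were all members, every other S100 family gene that was tested, list genes past the test (at most 4 per list, comparison and direction), Anxa2 and Tlr4, the 3 genes most like each member over 16 arrays, and up to 3 genes of each marker list. Anxa6, Cacybp and Myh9 were named besides. The deviations of same-numbered Eμ-xbp-1s and nontransgenic B cell arrays from their group means had r of 0.512, 0.527, 0.218, 0.176 and 0.512. Replicates 1, 4 and 5 had a higher r with another number (0.593, 0.466 and 0.521), and no label pairs the arrays. The main fit therefore took no pairs, and the replicate number was a block only as an alternative. Alternatives changed the floor, pseudocount, filter, normalisation, samples in the fit, replicate block, threshold, probe set and arrays. No array duplicated another.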

Additional observations from a re-analysis of the deposited data

Results flagged for a closer look

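Of 66 groups of arrays examined (members and named list genes other than Anxa6, Cacybp and Myh9), 12 held an array whose gap to the next exceeded Dixon's 95% limit, and chance flags about 1 in 20 such groups. MM replicate 6 was high for S100a1 (945.2, against 134.1 to 320.3 on the other MM arrays) and for the brightest S100a10 probe set (2341, against 330.4 to 446.5) and the second (1458, against 200.1 to 406.6). Eμ-xbp-1s B cell replicate 5 was high for S100a8 (8190, against 3627 to 4663) and S100a9 (7519, against 3491 to 4222). MM replicate 5 was low for S100a13 (171.3, against 367.1 to 445.6), and nontransgenic B cell replicate 4 was low for the dimmest S100a10 probe set (112.8, against 129.6 to 132.0). Among the list genes, MM replicate 4 was high for Anxa1 (5266, against 374.9 to 1616) and Cebpd (510.3, against 172.5 to 239.2), MM replicate 2 was low for S100a5 (73.0, against 110.0 to 131.1), Eμ-xbp-1s B cell replicate 4 was high for Cd14 (603.0, against 290.7 to 351.9), and nontransgenic B cell replicate 3 was low for Cebpa (57.4, against 78.1 to 80.0).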

How the results depend on the processing

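Member counts in Eμ-xbp-1s over nontransgenic B cells (5) became 2 with all 3 groups in 1 fit and stayed at 5 whichever array was left out. For MM over Eμ-xbp-1s B cells (0) they became 1 with median scaling, 2 with all 3 groups in 1 fit, 2 without MM replicates 4 and 5, 4 with MM replicates 1 to 3 only, and 2 at an adjusted p under 0.05, all lower in MM, and 0 to 3 when 1 array was left out (3 without MM replicate 6). For MM over nontransgenic B cells (2, both higher) they became 5 with MM replicates 1 to 3 only (3 higher and 2 lower), and 2 to 4 when 1 array was left out (without MM replicate 6, 2 higher and 2 lower). The lower ones were S100a10 probe sets. Where leaving out MM arrays added lower calls among the members, the arrays left out held the highest MM values of the genes called.

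List counts in Eμ-xbp-1s over nontransgenic B cells (9) became 5 without the filter, 1 with all 3 groups in 1 fit and 5 with replicates 3 to 5 of both groups only, and 6 to 9 when 1 array was left out. For MM over Eμ-xbp-1s B cells (1, lower) they became 2 with a floor of 100, 2 with quantile normalization, 2 with median scaling, 5 with all 3 groups in 1 fit, 2 without MM replicates 4 and 5, 5 with MM replicates 1 to 3 only and 6 at an adjusted p under 0.05, and 1 to 3 when 1 array was left out (2 without MM replicate 5, 3 without MM replicate 6). In each of those counts 1 or 2 genes were lower in MM and any others higher. For MM over nontransgenic B cells (6, of which 5 higher) they became 14 with MM replicates 1 to 3 only (12 higher) and 12 at an adjusted p under 0.05 (10 higher), and 4 to 9 when 1 array was left out. The cause of these moves was not tested, apart from the fewer or other arrays in the fits themselves.

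With the replicate number as a block, MM over Eμ-xbp-1s B cells gave 2 members, both lower, and 2 list genes, 1 each way, and MM over nontransgenic B cells gave 4 members, 2 higher and 2 lower (S100a10), and 9 list genes, 8 higher. MM replicate 6 has no partner in that block and adds nothing to it, and same-numbered arrays did not all deviate together there (r down to -0.284), so these numbers are no pairing. In Eμ-xbp-1s over nontransgenic B cells the fit with that block gave 5 members and 10 list genes, and changed no call but that of Rptn. No label makes pairs of those arrays either. The fits on replicates 1 and 2, on replicates 3 to 5 and on MM replicates 1 to 3 were chosen after seeing the data. Values under about 50 on these arrays have no order. Scaling each array to the same median put the median log2 fold change of all probe sets at -0.09 in MM over Eμ-xbp-1s B cells and -0.14 in MM over nontransgenic B cells. Over all probe sets, calls ran between 205 (all 3 groups in 1 fit) and 1529 (replicates 1 and 2) in Eμ-xbp-1s over nontransgenic B cells, where 666 were called, between 234 and 1881 in MM over Eμ-xbp-1s B cells (708), and between 1071 and 4415 in MM over nontransgenic B cells (2100).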
